A study of Homo sapiens with 6 samples.

Results

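The Sonic hedgehog pathway genes GLI1, GLI2, GLI3, PTCH1, SMO, SUFU, HHIP and ATOH1 were examined for MYC peaks near their starts. A peak belonged to a gene when its summit lay within 5 kb of the start of that gene in hg19, and 33 peaks in 3 lists met this rule. Of the 8 genes, 6 had such peaks and 2, GLI2 and ATOH1, had none. These 33 peaks were 12 of 24899 in MYC replicate 1, 8 of 16809 in replicate 2 and 13 of 17298 in replicate 3. Merged wherever they overlapped, they formed 13 places, of which 10 were consensus places with peaks of at least 2 replicates. The whole series held 17350 consensus places.

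ChIP-seq, the sequencing of DNA recovered with an antibody from cross-linked chromatin, was used to map MYC in the human medulloblastoma cell line ONS76. The labels give an inducible SOX2 genotype and growth in DMEM with 10% FBS for all libraries, while the study's methods call the cells ONS76 and its text says that SOX2 was not raised for ChIP-seq. The labels name 3 libraries made with the MYC antibody Y69 and 3 made with normal IgG, a non-specific antibody. Only the MYC peak lists were analysed here, so no groups were compared and no test between groups was made. The cells are 1 cell line, and the study's methods say that separate immunoprecipitations from 1 batch of chromatin were combined. Whether the replicates came from separate cultures or batches is not given, so an SD over replicates may hold technical spread only. Peak lists hold no expression, and the medulloblastoma label could not be checked against marker genes.

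In the Hedgehog pathway, a secreted ligand such as SHH binds the membrane receptor PTCH1, which otherwise holds the membrane protein SMO inactive. Active SMO releases the GLI transcription factors from SUFU, their cytoplasmic inhibitor, while HHIP binds the ligand at the cell surface. Excess signalling of this kind in cerebellar granule neuron progenitors, which depend on the transcription factor ATOH1, is a known origin of medulloblastoma. MYC pairs with MAX to bind the E-box CACGTG and related hexamers.

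The promoter sequences below show the E-box content of 4 of these genes. SUFU is shown because its MYC summits fell closest to a start, SMO because its peaks lay on both sides of the start, PTCH1, at the entry that holds a motif, because it had the most peaks, and ATOH1 because it had no peak. Each runs 5′ to 3′ on the strand of the gene, from 250 bases before a start site to 49 after it, as RefSeq gives it for GRCh38.p14. Capitals mark CACGTG, the related hexamer CATGTG, the related hexamer CACGCG or the reverse complement of these, and SMO and SUFU have none. The hg19 starts were not carried to this build, so the peaks were not laid on these letters.
SUFU, chr10:102503722-102504021, plus strand: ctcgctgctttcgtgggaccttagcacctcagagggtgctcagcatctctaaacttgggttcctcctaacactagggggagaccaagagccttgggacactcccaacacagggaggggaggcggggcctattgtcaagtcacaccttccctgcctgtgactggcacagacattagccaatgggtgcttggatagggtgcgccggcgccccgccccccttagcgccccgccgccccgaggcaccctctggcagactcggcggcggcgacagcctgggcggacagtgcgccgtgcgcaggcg
SMO, chr7:129188383-129188682, plus strand: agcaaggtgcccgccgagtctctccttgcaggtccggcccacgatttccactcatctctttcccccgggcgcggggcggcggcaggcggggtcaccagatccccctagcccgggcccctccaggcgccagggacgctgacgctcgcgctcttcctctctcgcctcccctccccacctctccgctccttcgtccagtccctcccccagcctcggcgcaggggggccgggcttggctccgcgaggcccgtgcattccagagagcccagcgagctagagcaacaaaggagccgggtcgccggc
PTCH1, chr9:95507150-95507449, minus strand, 1 of 5 listed starts: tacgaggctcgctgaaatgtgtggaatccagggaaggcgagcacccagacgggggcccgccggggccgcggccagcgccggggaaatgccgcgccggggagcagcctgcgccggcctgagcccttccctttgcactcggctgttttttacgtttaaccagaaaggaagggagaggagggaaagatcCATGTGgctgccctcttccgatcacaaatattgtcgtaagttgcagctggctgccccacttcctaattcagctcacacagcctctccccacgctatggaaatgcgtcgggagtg
ATOH1, chr4:93828503-93828802, plus strand: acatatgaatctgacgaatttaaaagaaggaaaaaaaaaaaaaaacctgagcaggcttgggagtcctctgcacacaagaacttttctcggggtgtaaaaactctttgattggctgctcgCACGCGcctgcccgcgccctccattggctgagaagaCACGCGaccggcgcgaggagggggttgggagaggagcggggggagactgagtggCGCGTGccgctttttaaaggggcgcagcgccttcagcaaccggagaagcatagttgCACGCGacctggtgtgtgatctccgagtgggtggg

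Across the RefSeq table, 6 of the 8 genes had promoter entries, 11 in all. GLI1 and GLI3 had none. CACGTG was in 0 of these 6 genes, against 8.78% of the 27305 genes in the table and 7.26% of its 35116 entries. CACGTG reads the same on both strands. Adding CATGTG as well as CACGCG with their reverse complements, which can share bases and then count separately, gave a match in 2 of the 6 genes, against 31.3% of all genes. PTCH1 had CATGTG with its first base 64 bases before the start site, at 1 of its 5 listed starts. ATOH1 had CACGCG at −131, −95 and 15 and CGCGTG at −41, counted with the start site as 0. The gene with the most matches was therefore one with no MYC peak within 5 kb. A match is a description of these letters and marks no site of binding.

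Of 34 other Hedgehog genes listed from general knowledge, among them the ligands, co-receptors and further GLI regulators, 26 had a promoter entry. CACGTG was in 2 of these 26, the ligand acyltransferase HHAT and the transcription factor ZIC1, named after their matches were seen. Any of the 5 motifs was in 7, or 26.9%, beside 31.3% of all genes. Their hg19 starts were not in the sources used here, and their peaks were not counted.

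Depth differed between lists. The genome-wide background, the fragments that an even spread would give a site, was 7.79, 5.84 and 4.76 in replicates 1 to 3. The weakest peaks called at that background held 19, 16 and 14 fragments in the same order, with fold enrichments of 2.28, 2.49 and 2.61. A gene without a peak was therefore below the calling limit of that list, not shown to be free of MYC. Fold enrichment was the ratio of summit fragments to local background with 1 added to both, and its median over all peaks was 4.15, 4.49 and 4.78.

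**Figure D1:**
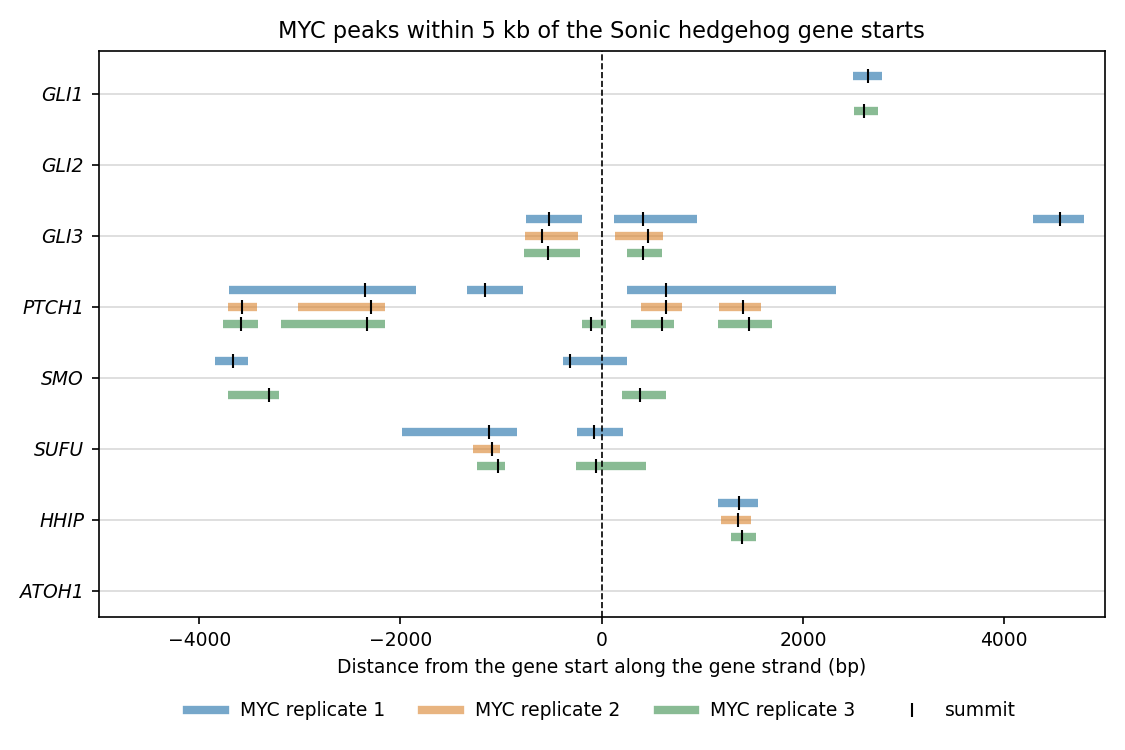
Position of MYC peaks (bars, colored by replicate) and their summits (ticks) by distance in bp from the start of each gene, along its strand, with the start at the dashed line. PTCH1 held 12 of the 33 peaks, while GLI2 and ATOH1 held none.

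MYC peaks lay within 5 kb of the start in at least 2 replicates for 6 of the 8 genes, and in all 3 replicates for 4: GLI3, PTCH1, SUFU and HHIP. The remaining pair, GLI1 and SMO, had peaks in replicates 1 and 3. For SUFU, the count of 3 replicates rests on an upstream place near the start of its neighbour ACTR1A, by the GRCh38 annotation. For comparison, positions taken every 10 kb along chromosomes 1 to 22 and X had a summit within 5 kb in at least 1 replicate in 7.88% of cases, in at least 2 in 5.24% and in all 3 in 3.90%. These positions are mostly not gene starts, and they include sequence in which no peak can be called, which can lower these shares. The share among all gene starts was not computed because their hg19 positions were not in the sources used here. The count of 6 therefore cannot be read against other genes. All 6 genes are at least 12484 bp long in the GRCh38 annotation, so places after a start lie inside the gene, but whether in an exon or an intron was not determined in hg19. Among the 10 consensus places, 6 had peaks of all 3 replicates, or 60%, against 72.0% of all 17350.

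PTCH1, the Hedgehog receptor and itself a known target of GLI factors, had the most peaks, with 3, 4 and 5 in replicates 1, 2 and 3. Of the positions with summits in at least 2 replicates, 0.260% had 12 or more summits within 5 kb, a comparison chosen after the count was seen. PTCH1 was taken as the gene with the most peaks, and the positions are mostly not gene starts. Summits were counted in each replicate and for each part of a split peak. This share therefore does not measure how unusual PTCH1 is among genes. The peaks formed 4 places on both sides of the start at chr9:98270831. A pair of these places, chr9:98272681-98274597 upstream and chr9:98268498-98270582 downstream, was present in all 3 replicates.

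The upstream place of PTCH1 had summits 2350, 2293 and 2330 bp before the start in replicates 1, 2 and 3. Fold enrichment there was 9.28 in replicate 1, from 85 fragments with an exact Poisson 95% interval of 67.9 to 105.1. It was 5.56 in replicate 2, from 37 fragments (26.1 to 51.0), and 5.91 in replicate 3, from 33 fragments (22.7 to 46.3). By fold enrichment replicate 1 was the highest, while replicates 2 and 3 lay close together, and the mean was 6.92 ± 2.06 (SD, n = 3). Without replicate 1 the mean was 5.73. Intervals here and elsewhere are in fragments and cover counting error only. They are not scaled for the depth of a list, so they cannot be compared between replicates. This place ranked 3907 of the 17350 consensus places by the geometric mean of fold enrichment over replicates. Replicates 2 and 3 each had a second peak there, with summits 3570 and 3580 bp before the start and fold enrichments of 4.86 and 5.39. Replicate 1 had a single peak of 1855 bp across the same stretch.

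The downstream place of PTCH1 had the same form, with a single peak of 2085 bp in replicate 1 and a pair of peaks in each of the others. In replicate 1 the summit was 637 bp after the start, with a fold enrichment of 6.83 from 59 fragments (44.9 to 76.1). In replicate 2 the summits were 1406 and 643 bp after the start, with fold enrichments of 5.99 and 3.98. In replicate 3 they were 1468 and 596 bp after it, with 5.56 and 3.47. The summit near 0.6 kb therefore recurred in every replicate, but was the weaker of the pair in replicates 2 and 3. Taking the strongest peak of each replicate, the mean was 6.13 ± 0.646 (SD, n = 3).

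The other two PTCH1 places were each in 1 replicate. One lay 1157 bp before the start in replicate 1, with a fold enrichment of 3.62 from 40 fragments. The other lay 102 bp before the start in replicate 3, with 3.13 from 17 fragments, and 7.79% of that list was weaker. RefSeq lists 5 starts of PTCH1 over 9772 bp in GRCh38, so a place upstream of 1 start can be downstream of another. A long non-coding RNA on the opposite strand, ENSG00000271659, starts 3012 bp after the annotated PTCH1 gene start in that build, inside the gene. Its distance from the hg19 start used here was not determined.

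SMO, the transducer that PTCH1 restrains, had peaks at 2 places in replicates 1 and 3 and none within 5 kb in replicate 2. At the start itself (chr7:128828713), in chr7:128828333-128829356, the summit was 317 bp before it in replicate 1 and 380 bp after it in replicate 3. Fold enrichment was 2.98 from 45 fragments (32.8 to 60.2) and 3.41 from 27 fragments (17.8 to 39.3). The summits were 697 bp apart and the peaks shared 45 bases, so the replicates did not mark the same position. At the place further upstream, chr7:128824869-128825502, the summits were 3661 and 3310 bp before the start, with fold enrichments of 3.41 and 3.29. These summits were 351 bp apart. With replicates matched by summits at most 200 bp apart, or by a reciprocal overlap of 50%, SMO no longer counted and 5 genes remained, settings chosen after the data were seen. The nearest summit in replicate 2 was 35.9 kb after the SMO start, with a fold enrichment of 4.37. Replicates 1 and 3 also held this place, with 8.69 and 6.05, and which gene lies there was not determined.

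SUFU, the inhibitor of GLI factors, had summits closer to its start at chr10:104263719 than any other gene in replicates 1 and 3. They lay 77 and 53 bp before it, at chr10:104263464-104264159. Fold enrichment was 4.49 from 69 fragments (53.7 to 87.3) in replicate 1 and 4.11 from 33 fragments (22.7 to 46.3) in replicate 3, averaging 4.30 ± 0.268 (SD, n = 2). Replicate 2 had no peak there. A second place, chr10:104261734-104262875, was in all 3 replicates, with summits 1121, 1091 and 1033 bp before the start. Its fold enrichment was 4.40, 2.63 and 3.30, a mean of 3.44 ± 0.893 (SD, n = 3). By geometric mean it was above 12.3% of the consensus places. ACTR1A, which encodes a dynactin subunit, begins on the opposite strand next to SUFU in the GRCh38 annotation, and the peaks upstream of SUFU could not be assigned to 1 of the 2 genes.

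HHIP, the ligand-binding inhibitor and a known GLI target, had 1 place, chr4:145568308-145568702, in all 3 replicates. Its summits lay within 35 bp of each other, at 1368, 1357 and 1392 bp after the start at chr4:145567148. Fold enrichment was 6.03 from 52 fragments (38.8 to 68.2) in replicate 1, 3.95 from 26 fragments (17.0 to 38.1) in replicate 2 and 4.17 from 23 fragments (14.6 to 34.5) in replicate 3. Replicate 1 was again the highest, and the mean was 4.72 ± 1.15 (SD, n = 3). No other place was found within 100 kb of the HHIP start. HHIP-AS1, a transcript of the opposite strand, begins next to HHIP in the RefSeq table.

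GLI3, the family member that acts mainly as a repressor when the pathway is off, had 2 places in all 3 replicates, on either side of the start at chr7:42276618. The upstream place, chr7:42276817-42277390, had summits 526, 593 and 531 bp before the start. Its fold enrichment was 4.62 from 45 fragments in replicate 1, 5.41 from 36 in replicate 2 and 6.08 from 34 in replicate 3, averaging 5.37 ± 0.730 (SD, n = 3). The downstream place, chr7:42275669-42276491, had summits 415, 464 and 407 bp after the start and fold enrichments of 5.55, 4.68 and 5.21, a mean of 5.15 ± 0.441 (SD, n = 3). The pair did not differ beyond their spread, and replicate 1 was lowest at the one and highest at the other. Another place, 4556 bp after the start, was in replicate 1 only, with a fold enrichment of 5.43 from 53 fragments.

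GLI1, the activating GLI factor whose expression is the common readout of the pathway, had 1 place, chr12:57856415-57856706. Its summits were 2645 bp after the start at chr12:57853918 in replicate 1 and 2611 bp after it in replicate 3. Fold enrichment was 3.01 from 31 fragments (21.1 to 44) and 4.34 from 24 fragments (15.4 to 35.7), a mean of 3.67 ± 0.944 (SD, n = 2). In replicate 2 the nearest summit was 28.0 kb away. By geometric mean the place ranked 14005 of 17350, and GLI1 had no summit within 2 kb of its start in any replicate. A long non-coding RNA on the opposite strand, ENSG00000287200, starts 3033 bp after the GLI1 start of the GRCh38 annotation. Its hg19 position was not determined, and the place could not be assigned to 1 of the 2 genes.

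**Figure D2:**
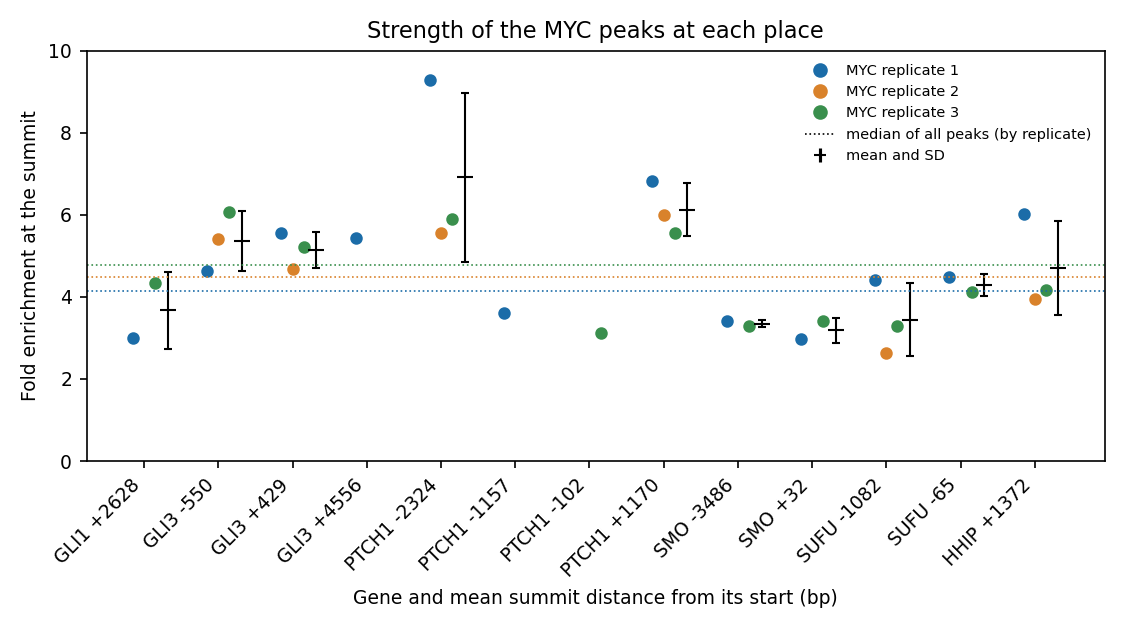
Fold enrichment at the summit for each of the 13 places (strongest peak per replicate, points), with the mean and SD where at least 2 replicates had a peak; dotted lines are the medians of all peaks of each list. The x axis names the gene and the mean summit distance in bp, and the upstream PTCH1 place in replicate 1, at 9.28, is the highest point.

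Ordered by the strongest peak of each replicate, fold enrichment averaged 7.06 ± 1.93 at PTCH1, 5.68 ± 0.353 at GLI3, 4.72 ± 1.15 at HHIP and 3.74 ± 0.982 at SUFU (SD, n = 3). GLI1 followed with 3.67 ± 0.944, and SMO had 3.41 in both of its replicates (n = 2). The SMO values came from different places, the one further upstream in replicate 1 and the one at the start in replicate 3. They are therefore not an agreement at 1 place. At PTCH1, GLI3 and SUFU, too, the strongest peak lay at different places in different replicates, so these SDs are not the spread of 1 place. A gene with more peaks also had more from which to take the highest, while HHIP and GLI1 had at most 1 per replicate. Neighbours in this order overlapped: PTCH1 ranged from 5.91 to 9.28, GLI3 from 5.41 to 6.08, HHIP from 3.95 to 6.03 and SUFU from 2.63 to 4.49. The ranges of PTCH1 and GLI3 lay above those of SUFU, GLI1 and SMO, but for SUFU only with the local background as divisor. Counted over the genome-wide background, a divisor chosen after the data were seen, the highest peaks of SUFU gave 8.86, 4.28 and 6.94 and those of GLI3 gave 6.81, 6.16 and 7.15. The range of SUFU then spanned that of GLI3, and the order of the means became PTCH1 at 8.24 ± 2.33, GLI3 at 6.71 ± 0.499, SUFU at 6.69 ± 2.30, SMO at 5.79 ± 0.164, HHIP at 5.32 ± 1.19 and GLI1 at 4.51 ± 0.752 (SD, n = 3, and n = 2 for SMO and GLI1). Within replicates and by fold enrichment, PTCH1 was highest in replicates 1 and 2, and GLI3, at 6.08 against 5.91 for PTCH1, in replicate 3.

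**Figure D3:**
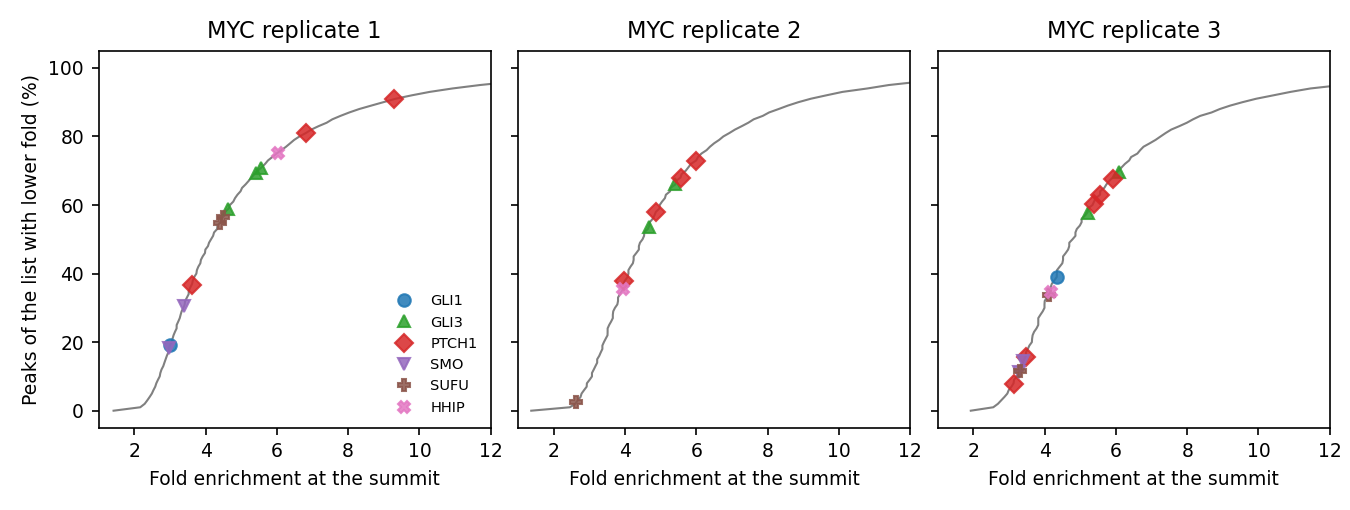
Share of all peaks in a list with lower fold enrichment (y axis, %) against fold enrichment at the summit (x axis) in MYC replicates 1, 2 and 3; the grey line is the whole list and symbols are the peaks of the pathway genes. The highest symbol of each list stands at 90.8%, 73.0% and 69.7%.

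Against all peaks of their own list, the pathway peaks stood above the middle in replicates 1 and 2 and below it in replicate 3. Their median fold enrichment was 4.56, 4.77 and 4.17 in replicates 1, 2 and 3, or 4.50 ± 0.303 (SD, n = 3), and the medians of all peaks gave 4.48 ± 0.315. These means lie close together because the replicates went in opposite directions, and they do not settle whether the pathway peaks were stronger or weaker. The median pathway peak exceeded 57.6%, 55.7% and 34.7% of its list in replicates 1, 2 and 3. Above the list median were 8 of 12 peaks in replicate 1, 5 of 8 in replicate 2 and 5 of 13 in replicate 3. The strongest peaks of these genes stood at 90.8%, 73.0% and 69.7% of their lists, so peaks of higher fold enrichment were common elsewhere.

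Local background, the fragments expected around a summit, was compared with the genome-wide background as a relative level. At SUFU it was 1.51 to 1.87 at all 5 peaks, while the median over all peaks of chromosome 10 was 1.00 in each replicate. At SMO it was 1.52 to 1.86, with chromosome 7 medians of 1.59 in replicate 1 and 1.49 in replicate 3. GLI3, on the same chromosome 7, had 1.00 to 1.15. Counting fragments against the genome-wide background instead of the local one, the start-proximal SUFU place reached 8.86 and 6.94 in replicates 1 and 3. The fold enrichments of 4.49 and 4.11 there had the raised local background as their divisor. HHIP had 1.00 in every replicate. Over all pathway peaks the median was 1.19, 1.00 and 1.00, or 1.06 ± 0.112 (SD, n = 3), against 1.09 ± 0.0607 over all peaks. Their part in the fold enrichments was not tested.

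**Figure D4:**
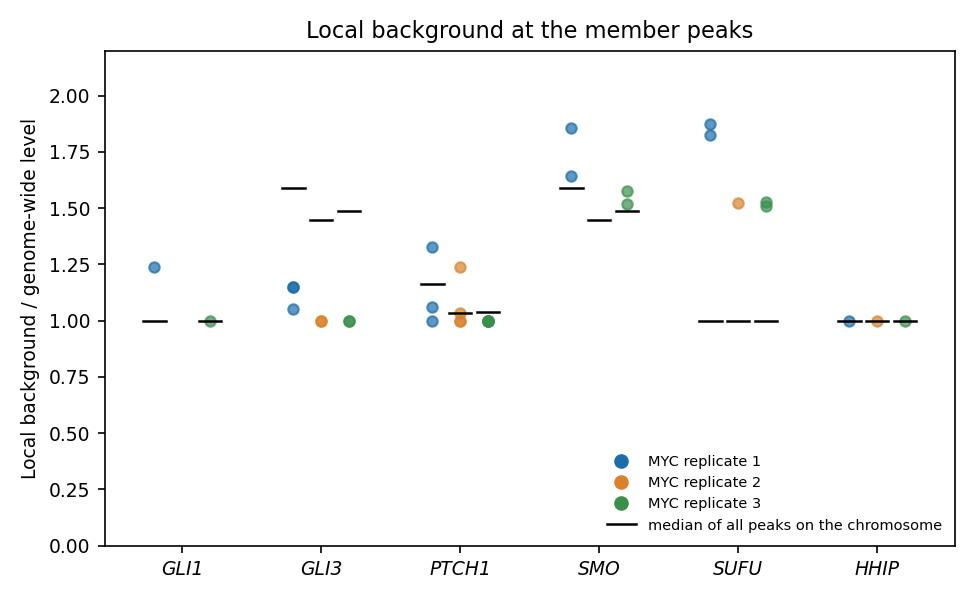
Ratio of local to genome-wide background at each peak of the pathway genes (points, colored by replicate), with the median of all peaks on the same chromosome as a black bar. SUFU lies at 1.51 to 1.87 above a chromosome median of 1.00, whereas GLI3 lies below its chromosome medians.

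GLI2, the main activator downstream of SMO, had no MYC summit within 100 kb of its start at chr2:121554867. The nearest summits were 232.8, 358.4 and 244.2 kb away in replicates 1, 2 and 3, at different positions, with fold enrichments of 3.98, 4.09 and 4.34. Of the evenly spaced positions, 28.3% were at least as far from any summit, so this distance is not rare among them. The positions include sequence in which no peak can be called, which can raise this share. The RefSeq table lists 2 starts for GLI2, 56413 bp apart, and only 1 start was used here.

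ATOH1 had its nearest summit 379.0, 379.1 and 379.1 kb after the start at chr4:94750078. The same position was found in all 3 replicates with fold enrichments of 9.65, 8.63 and 9.90, each higher than any peak within 5 kb of the other genes in that replicate, and which gene lies there was not determined. Positions at least as far from a summit made up 19.4% of the evenly spaced positions, a share with the same limit as for GLI2. ATOH1 was thus the member with the most distant nearest summit in every replicate.

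**Figure D5:**
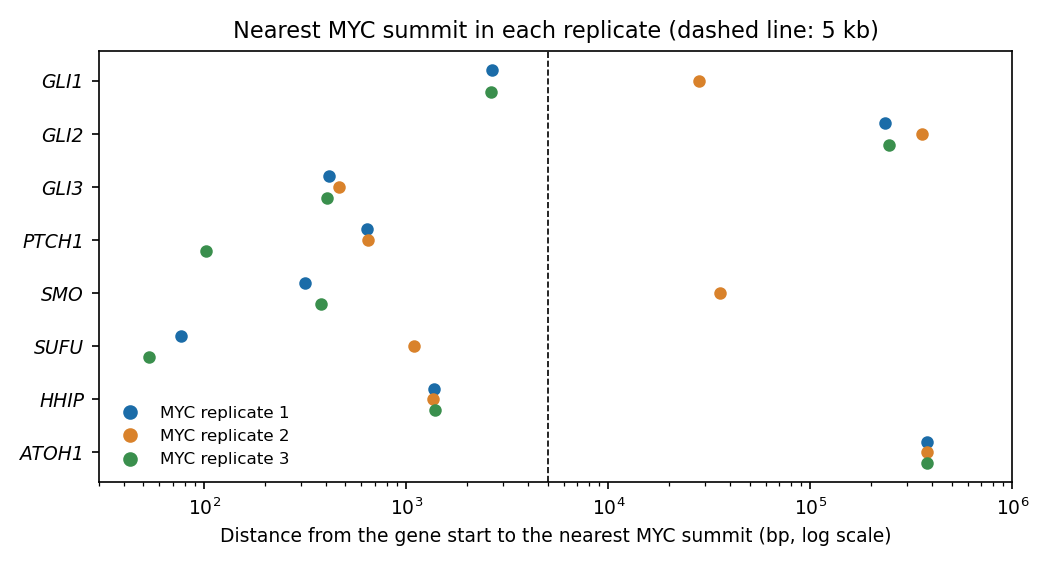
Distance in bp (log scale) from each gene start to the nearest MYC summit in each replicate, with the 5 kb limit as a dashed line. GLI1 and SMO cross the line in replicate 2 only, and GLI2 and ATOH1 lie 232.8 kb away or more in all 3 replicates.

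Beyond 5 kb, consensus places within 100 kb of the start numbered 6 for SUFU, 4 each for GLI1 and PTCH1, 3 each for GLI3 and SMO, 1 for HHIP and 0 for GLI2 and ATOH1, the places within 5 kb included. The strongest lay 53.4 kb before the SUFU start, with fold enrichments of 16.9, 12.6 and 16.3. PTCH1 had a place 81.8 kb after its start, with 12.1, 8.33 and 9.16, and another 14.5 kb after it, with 5.43, 3.72 and 6.20. GLI1 had a place 29.0 kb before its start, with 9.56, 6.58 and 6.77. Which genes lie at these places was not determined, and the distance of 81.8 kb exceeds the annotated PTCH1 length of 74078 bp in GRCh38. Each of these was in all 3 replicates, and at GLI1, SUFU, SMO and PTCH1 the strongest peak within 100 kb was outside the 5 kb window in every replicate. With a window of 50 kb the same 6 genes had summits in all 3 replicates. A wider window takes in more summits at any position. The share of evenly spaced positions was not computed for windows of 50 or 100 kb, so these counts cannot be read as a trait of the pathway genes.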

How the data were processed

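MYC ChIP-seq of ONS76 was analysed from 3 deposited peak lists, 1 per library; groups and replicate numbers come from the labels, and the 3 IgG libraries were not analysed here. Per the study's methods, the authors aligned reads to hg19 with Bowtie2 and called peaks in each library with MACS2 (q-value 0.05). The sources used here do not give the control library, the program versions or how duplicates were handled. As deposited by the authors, fold enrichment is a ratio of summit fragments to local background and comes with a −log10 p-value, a −log10 q-value and a score, the whole part of 10 times the −log10 q-value. None was scaled between libraries, and the lists give no read totals.

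Gene starts came from the rule that defines the gene list. Summits within 5 kb were kept. Peaks overlapping by at least 1 bp were merged, and a consensus place needed 2 or more replicates, the study's own criterion. Summit fragments and local background were recovered from the fold and −log10 p-value, matching within 0.001 for 100% of peaks, and the step was tested on simulated data. Relative background is the local background over the lowest of the list. Intervals are exact Poisson 95%. Nothing was tested between groups, because 1 group had lists. Background shares used positions every 10 kb between the first and the last summit of a chromosome, with no sequence left out. Named were all 8 genes and the annotated neighbours whose start a summit could share. The gene lists were chosen with earlier results of these data known. Alternatives were windows of 1, 2 and 10 kb, any peak base within 5 kb, stricter q-values, equal numbers of peaks, leaving out each replicate, other consensus rules, nothing added to the ratio, and more E-box motifs. Python 3.11.15, numpy 2.4.6, pandas 2.3.3 and scipy 1.17.1 were used.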

Additional observations from a re-analysis of the deposited data

How the results depend on the processing

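The count of 6 genes with a consensus peak was 4 to 6 under every setting tried. It was 4 with summits within 1 kb or with peaks required in all 3 replicates, 5 within 2 kb or with equal numbers of the strongest peaks, and 6 within 10 kb, with any peak base within 5 kb, or at q-values of 0.01 and 0.001. Leaving out a replicate gave 4 to 6, with 4 without replicate 1 or 3, because GLI1 and SMO have peaks in these replicates only. Peaks per replicate fell from a mean of 11 to 4.67 with summits within 1 kb, and median fold enrichment rose from 4.50 to 5.02 with nothing added to the ratio. Counted over the genome-wide background, the highest peaks of SUFU averaged 6.69 in place of a fold enrichment of 3.74, and SUFU and SMO passed HHIP in the order of means. Genes with an E-box numbered 0 with CACGTG alone and 2 with the 5 motifs. Other settings left peaks per replicate within 1.5 times, and median fold enrichment and relative background within 1 SD, of the values reported. No paired analysis was possible because the result comes from no test, and lists of 1 group were analysed. Depth limits what can be seen: weaker sites than 19, 16 and 14 fragments at the genome-wide background were not called in replicates 1, 2 and 3.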
